A study of Medicago truncatula with 12 samples.

Results

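The genes described here encode the plant side of symbiosis signalling in *Medicago truncatula*, the pathway through which a legume root recognises nitrogen-fixing rhizobia and arbuscular mycorrhizal fungi. They were chosen by name and gene identifier, not by their values, and all 10 (*NFP*, *LYK3*, *DMI2*, *DMI1*, *DMI3*, *IPD3*, *NSP1*, *NSP2*, *NIN*, and *ERN1*) were present among the 54073 genes of every library. Their RNA was measured in whole seedlings of wild-type plants of Jemalong A17, a reference cultivar of the species, at 4 weeks of age. Seedlings were kept in the cold, on dry filter paper (drought), or in nutrient solution with sodium chloride (salt), and libraries were made at 0, 2, 6 and 12 h. Each of these 12 conditions had 1 library, so no difference between conditions has a replicate check. The 0 h libraries were taken before each stress and serve as controls. No library of unstressed seedlings at a later time was among them, so that stress and time of day cannot be told apart. No bacterium or fungus is mentioned in the sample labels. Because whole seedlings were used, fewer cells that express a gene and less RNA per cell cannot be told apart either. The seedling label itself was not checked, because no root or leaf marker gene was annotated among the identifiers.

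In this pathway, *NFP* and *LYK3* encode receptors with extracellular LysM domains that perceive the lipochitooligosaccharide signals (Nod factors) of rhizobia. *DMI2* encodes a leucine-rich repeat receptor kinase that acts with them and is also needed for mycorrhiza. The signal reaches the nucleus, where the ion channel DMI1 of the nuclear envelope takes part in calcium oscillations, which are read by the calcium- and calmodulin-dependent kinase DMI3 and its partner IPD3. The transcription factors NSP1 and NSP2 (both GRAS proteins), NIN (an RWP-RK protein) and ERN1 (an ERF protein) then switch on the genes for infection and nodule formation. The pathway is known to be most active in roots, and *NIN* is known for its strong induction after contact with rhizobia.

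Expression values are FPKM, fragments (sequenced reads or read pairs) per transcript length and library depth. The files hold FPKM only, but the values of 37273 of the 37274 genes above 0 were whole multiples of a unit set by the gene and the library, so the number of fragments behind each value could be recovered. Between 12103751 and 25205150 fragments per library fell on genes. A gene counts as lowered or raised when its FPKM was at most 0.5 times or at least 2 times the value before that stress. Only genes that reached an FPKM of 1 in a library of the stress were tested, and "fell" and "rose" are used only of changes past 2-fold, against the value before the stress unless another time is named. The 95% intervals of log2 fold changes are Clopper-Pearson intervals on fragments. They cover counting error only, since fragments amplified by PCR are not independent molecules and the spread between plants was not measured.

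Before stress, the members spanned about 3 orders of magnitude in FPKM. *DMI2* (MTR_5g030920) had by far the highest level, with 36.9, 35.9, and 41.2 FPKM in the 0 h libraries of cold, drought, and salt, above 90.8% of the genes detected at 0 h. Next came the nuclear pair *IPD3* (MTR_5g026850) with 12.0, 11.8, and 10.3 FPKM and *DMI3* (MTR_8g043970) with 10.1, 10.3, and 12.1 FPKM. The ranges of these partners overlapped, so that their order is not resolved. *LYK3* (MTR_5g086130, 2.09 to 2.89 FPKM), *ERN1* (MTR_7g085810, 2.07 to 2.75), *DMI1* (MTR_2g005870, 1.81 to 2.23), and *NSP1* (MTR_8g020840, 1.22 to 2.00) formed a low group in which each range overlapped that of the next gene. The receptor *NFP* (MTR_5g019040) stayed below 1, at 0.588 to 0.811 FPKM, and *NSP2* (MTR_3g072710) was lower again at 0.311 to 0.406. At the bottom, *NIN* (MTR_5g099060) had 2, 4, and 0 fragments in the 3 libraries, an FPKM of at most 0.0659. The spread of a member between the libraries at 0 h was between 1.15-fold for *DMI2* and 1.64-fold for *NSP1*, leaving out *NIN*. None of the 7 members tested was past 2-fold between any of these libraries. That rule was met by 2.34% of all genes tested between cold and drought, 6.30% between cold and salt, and 6.05% between drought and salt. Levels of different genes are compared per transcript length here. The extraction protocol in the labels speaks of 3′-tag libraries, for which division by length would change the order between genes but not the change of a gene between libraries.

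**Figure D1:**
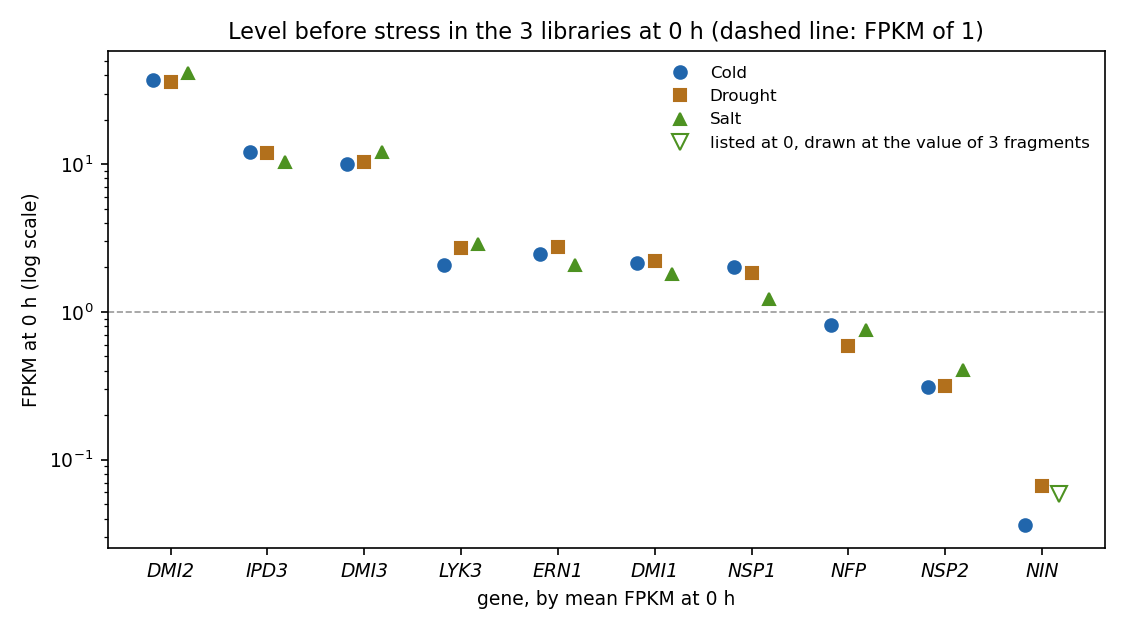
FPKM (log axis) of the 10 genes in the 3 libraries taken at 0 h, 1 point per library, ordered by the mean. The open triangle stands for *NIN* in the 0 h library of salt, which is listed at 0 and drawn at the value of 3 fragments. *DMI2* lay near 36 to 41 FPKM, whereas *NFP*, *NSP2*, and *NIN* lay below the dashed line at 1.

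Of the 10 members, 7 passed the filter on low values under every stress, namely *LYK3*, *DMI2*, *DMI1*, *DMI3*, *IPD3*, *NSP1*, and *ERN1*. *NFP*, *NSP2*, and *NIN* did not reach an FPKM of 1 in any library and are described by their fragments below. *DMI2*, *DMI3*, and *IPD3* were at or above 1 in all 12 libraries. Some of the others passed only through the level before stress, such as *LYK3* and *NSP1* under drought and *ERN1* under cold and salt. The counts of lowered genes are therefore a description and not a test of the pathway.

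Under drought all 7 members tested were lowered, and *NFP* and *NSP2* were also below their start at every later time. After 2 h, *LYK3*, *DMI3*, *IPD3*, and *NSP1* were lowered (4 of 7), where 9.32% of all 24038 genes tested were lowered. By 6 h *DMI2* and *ERN1* had joined them (6 of 7, against 24.6% of all genes), and at 12 h 7 of 7 were lowered (25.2% of all genes). None of the members tested was raised at these times, where 10.1%, 14.0%, and 12.8% of all genes were. Over all 10 members without a filter, and with fewer than 3 fragments counted as 3, the median log2 fold change was -1.37, -1.82, and -2.22 at 2, 6 and 12 h. The same median over all genes with more than 3 fragments was -0.09, -0.21, and -0.24. The values of all genes were therefore shifted slightly downwards in these libraries, by much less than those of the members.

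Under salt 6 of the 7 members tested were lowered. At 2 h, *LYK3*, *DMI2*, and *ERN1* were lowered (3 of 7, against 14.2% of 24418 genes tested), and at 6 h *DMI3* and *IPD3* as well (5 of 7, against 16.0%). At 12 h 6 of 7 were lowered (against 26.9%), with *NSP1* as the exception. No member tested was raised, where 11.9%, 14.4%, and 16.6% of all genes were. The median log2 fold change over the 10 members was -0.94, -1.17, and -1.89, and over all genes -0.15, -0.09, and -0.25. *ACTIN*, the standard gene of the study's qRT-PCR, was itself lower under salt and drought, with a log2 fold change of -0.50 at 12 h of salt and -0.71 at 12 h of drought. After division by *ACTIN*, *DMI1* at 12 h of salt and *DMI2* at 2 and 6 h, and *DMI3*, *IPD3*, and *ERN1* at 6 h were no longer past 2-fold, whereas the values of *DMI2*, *DMI3*, *IPD3*, *LYK3*, and *ERN1* at 12 h were. Under drought the same division ended the calls of *NSP1* and *ERN1* at 6 h.

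Under cold 3 of the 7 members tested were lowered. *NSP1* and *ERN1* were lowered at 2 h (2 of 7, against 6.60% of 23266 genes tested), *LYK3*, *NSP1*, and *ERN1* at 6 h (3 of 7, against 12.5%), and *LYK3* and *ERN1* at 12 h (2 of 7, against 14.8%). No member tested was raised, where 5.80%, 7.04%, and 6.96% of all genes were. With 7 members tested, shares of this size give little ground for a contrast. The same holds for raised genes under drought and salt and for the libraries at 0 h. *DMI2*, *DMI1*, *DMI3*, and *IPD3* stayed within 2-fold at every time. The median log2 fold change over the 10 members was -0.52 at 2 h, -0.65 at 6 h, and -0.09 at 12 h, and the last of these was closer to 0 than the median of all genes (-0.19).

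**Figure D2:**
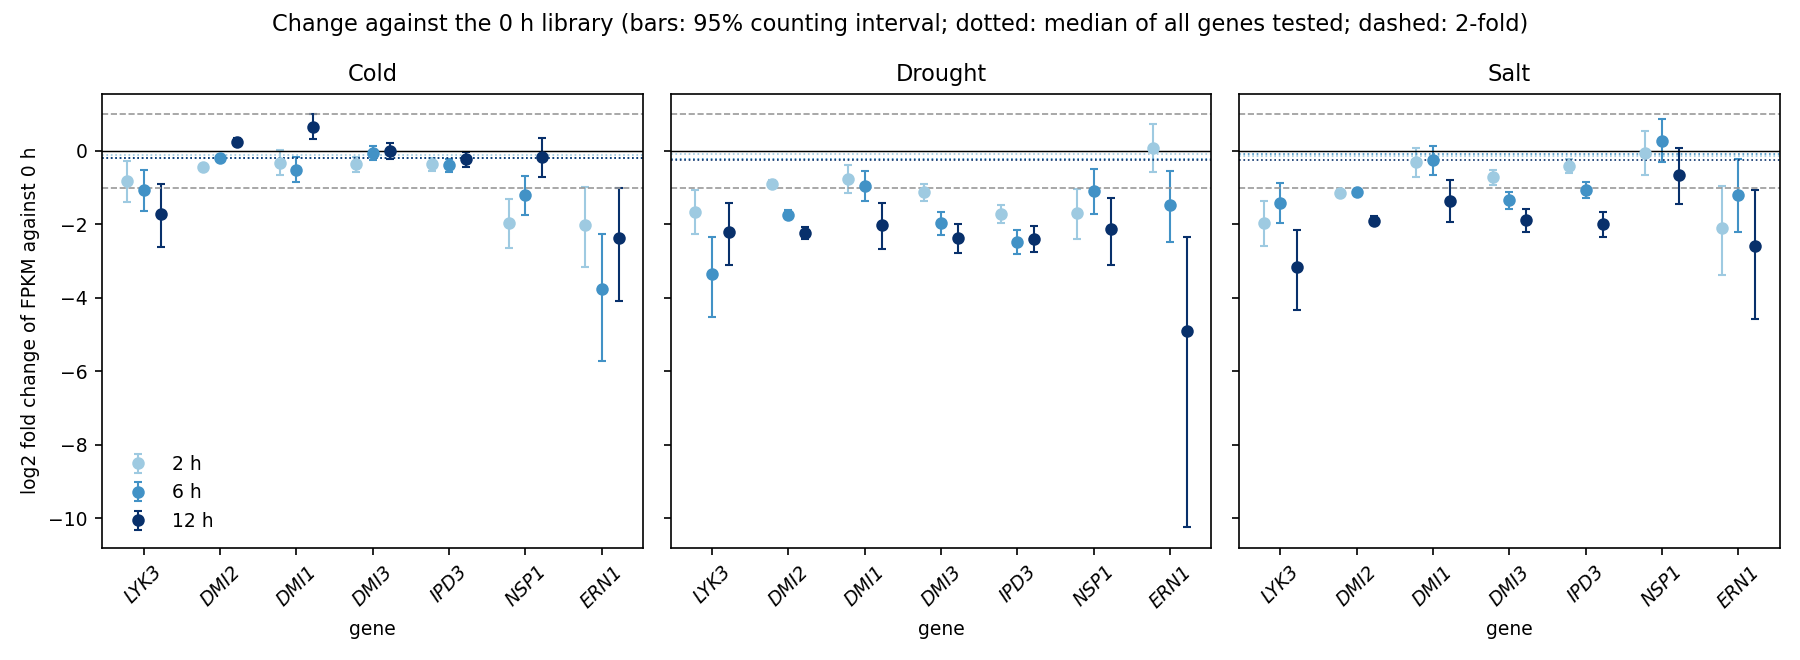
Log2 fold change of FPKM against the 0 h library of the same stress for the 7 genes that passed the filter, at 2, 6 and 12 h, with 95% counting intervals as bars. Dotted lines give the median of all genes tested and dashed lines the 2-fold limits. All 7 points of drought at 12 h lie below -1, between -2.02 and -4.90, whereas *DMI2*, *DMI1*, *DMI3*, *IPD3*, and *NSP1* at 12 h of cold lie between -0.22 and 0.66.

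Among the receptors, *LYK3* fell under all stresses. Its FPKM at 0, 2, 6 and 12 h was 2.70, 0.860, 0.267, and 0.581 under drought, from 89, 34, 9, and 15 fragments. Under salt it was 2.89, 0.741, 1.08, and 0.323, and under cold 2.09, 1.18, 0.994, and 0.633. Every later value was below each of the 3 values at 0 h, as were those of 43.6% to 50.7% of all genes in any given later library, a share that applies to the like statements on other members too. The lowest point was 6 h of drought, where the log2 fold change was -3.34 (95% interval -4.52 to -2.35), followed by 12 h of salt at -3.16 (-4.34 to -2.16). The fall under cold reached -1.72 (-2.61 to -0.91) at 12 h. At 6 h of salt *LYK3* was not past 2-fold below every library at 0 h. At 6 h of cold the value of -1.07 was just past the limit, and it was not past it when libraries were rescaled to the same sum or by the median ratio.

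*NFP*, the receptor without which Nod factors are not perceived, went the same way from a lower start. Its fragments at 0, 2, 6 and 12 h numbered 29, 10, 9, and 6 under cold, 23, 9, 3, and 0 under drought, and 25, 9, 1, and 11 under salt. Each of the 9 later FPKM values, of 0 to 0.333, was below the lowest of the values at 0 h. The log2 fold change at 2 h was -2.05 under cold (95% interval -3.25 to -0.98), -1.62 under drought (-2.91 to -0.45), and -2.16 under salt (-3.44 to -1.01), all leaving out no change by counting error. In the 12 h library of drought *NFP* was listed at 0, at least 6.01-fold lower when set to 3 fragments. Under salt it was at 0.0198 FPKM at 6 h and at 0.333 at 12 h, a ratio with a wide interval of the log2 fold change (1.29 to 9.50) because only 1 fragment stood at 6 h.

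*DMI2* was the most precisely measured member, with 384 to 3284 fragments per library. Under drought its FPKM was 35.9, 19.3, 10.8, and 7.65 at 0, 2, 6 and 12 h, and under salt 41.2, 18.4, 18.8, and 11.1. These values went down or held level from each time to the next, and the 6 later ones lay below all values at 0 h. At 12 h the log2 fold change was -2.23 (95% interval -2.39 to -2.08) under drought and -1.90 (-2.03 to -1.77) under salt. Under cold the values were 36.9, 27.3, 32.3, and 44.0, so that *DMI2* was below its starting level at 2 h (-0.44, -0.52 to -0.35) and above it at 12 h (0.25, 0.17 to 0.34), neither past 2-fold. The 44.0 FPKM at 12 h of cold was the highest of the 12 values. Under salt, the log2 fold changes at 2 and 6 h (-1.16 and -1.13) were past the limit against the salt library at 0 h but not against each of the 3 libraries at 0 h.

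**Figure D3:**
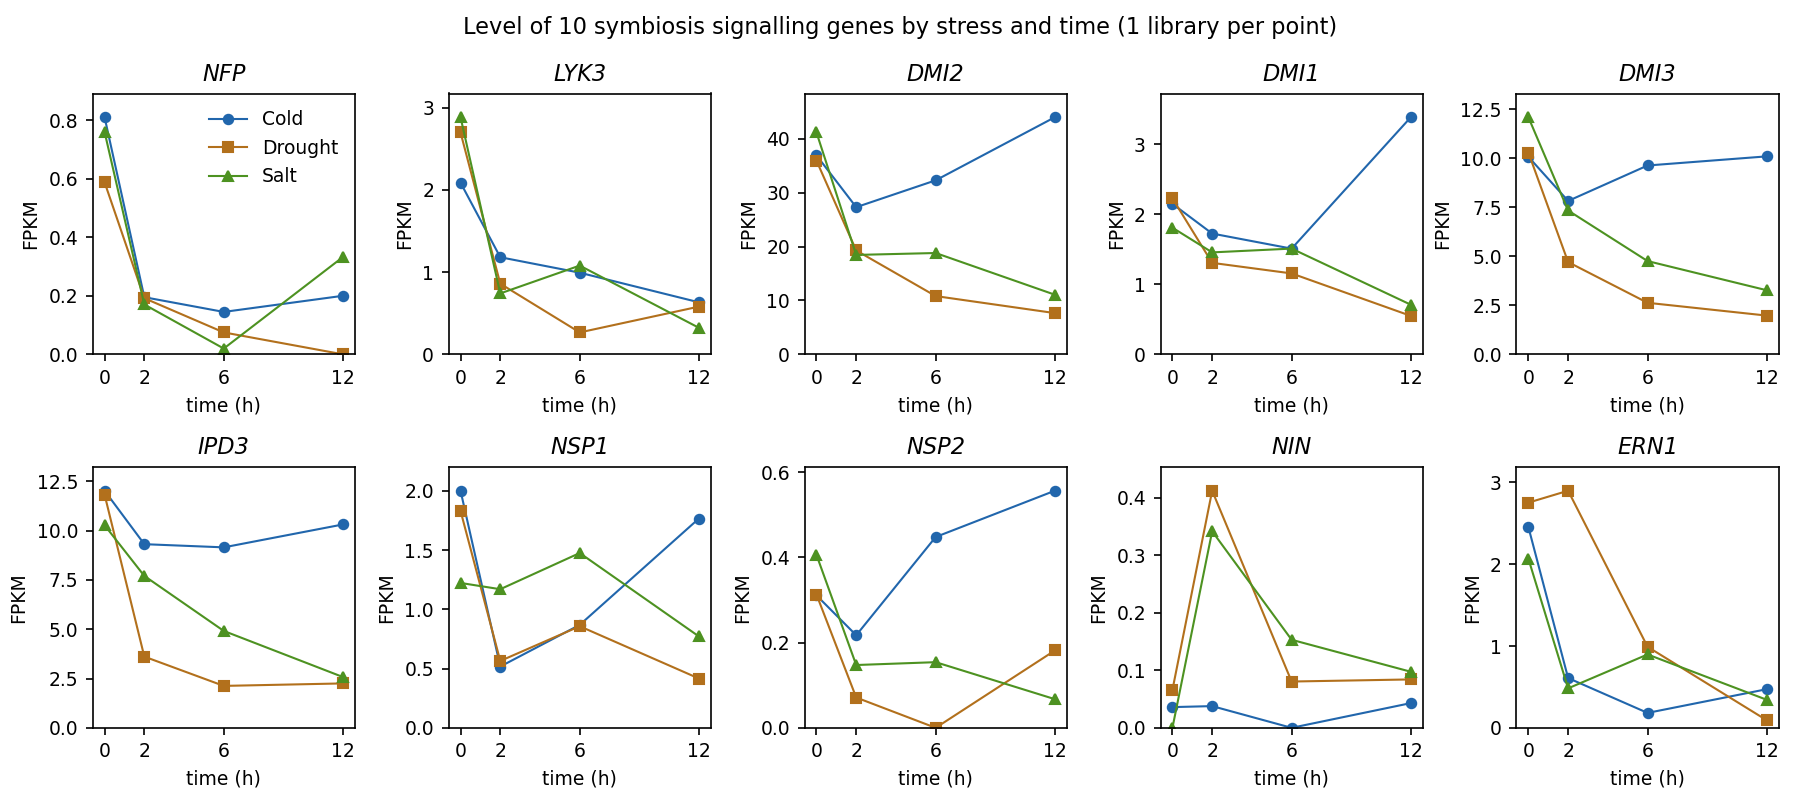
FPKM of each of the 10 genes (linear axes that start at 0) against time in h, 1 point per library, with circles for cold, squares for drought, and triangles for salt. The curves of drought and salt run downwards for *DMI2*, *DMI1*, *DMI3*, and *IPD3*, whereas those of cold end at 44.0, 3.39, 10.1, and 10.3 FPKM. *NIN* alone has its peak at 2 h of both drought and salt.

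The nuclear calcium decoder *DMI3* and its partner *IPD3* fell under drought and salt and stayed within 2-fold in the cold. *DMI3* had an FPKM of 10.3, 4.70, 2.63, and 1.98 at 0, 2, 6 and 12 h of drought, and of 12.1, 7.33, 4.75, and 3.27 of salt. *IPD3* had 11.8, 3.61, 2.13, and 2.25 under drought and 10.3, 7.71, 4.92, and 2.58 under salt. For both genes the later values of drought and salt lay below all values at 0 h. At 12 h of drought the log2 fold change was -2.38 (95% interval -2.78 to -2.00) for *DMI3* and -2.39 (-2.76 to -2.04) for *IPD3*. At 12 h of salt it was -1.89 (-2.20 to -1.59) and -2.00 (-2.34 to -1.67). In the cold, *DMI3* had 10.1, 7.82, 9.63, and 10.1 FPKM and *IPD3* 12.0, 9.32, 9.16, and 10.3, and the intervals at 12 h were -0.21 to 0.22 and -0.43 to -0.02. At 2 h *IPD3* had 189 fragments in the drought library and 454 in the salt library and was 2.13-fold higher under salt (log2 1.09, 95% interval 0.85 to 1.35), against 8.18% of all genes. It was also 2.58-fold lower at 2 h of drought than of cold, where 7.83% of all genes were lower. At 6 h of salt its log2 fold change of -1.06 was not past the limit after scaling by the median ratio.

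*DMI1*, the channel of the nuclear envelope, was lowered only at 12 h. Its FPKM was 2.23, 1.31, 1.16, and 0.549 under drought and 1.81, 1.46, 1.51, and 0.709 under salt, and the rule was met at 12 h in both. There the log2 fold change was -2.02 (95% interval -2.66 to -1.43) for drought and -1.35 (-1.93 to -0.80) for salt. At 2 and 6 h of salt the intervals (-0.70 to 0.08 and -0.65 to 0.13) held 0. Under cold the values were 2.15, 1.73, 1.51, and 3.39, and the last was the highest of the 12 values and 1.58 times that of 0 h (log2 0.66, with 0.32 as the lower end of the interval). From 6 to 12 h of cold *DMI1* rose 2.24-fold (log2 1.17, 0.84 to 1.49), a step at which 4.76% of all genes were raised.

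The ratios of *DMI2* to *DMI3* and of *DMI3* to *IPD3* varied less than the levels of these genes. Those of *LYK3* to *NFP* (0.970 to 54.5) and of *NSP1* to *NSP2* (1.94 to 11.5) varied more widely, with few fragments for *NFP* and *NSP2*. The ratio of the FPKM of *DMI2* to that of *DMI3* lay between 3.41 and 3.67 in the libraries at 0 h and between 2.52 (2 h of salt) and 4.36 (12 h of cold) in all 12, while the FPKM of *DMI2* itself varied 5.75-fold and that of *DMI3* 6.12-fold. The ratio of *DMI3* to *IPD3* was 0.837 to 1.18 at 0 h and, across all 12 libraries, had a median of 0.973 and was highest at 2 h of drought. Likeness between members was measured as the root mean square difference of their log2 fold changes over the 9 comparisons with 0 h, with a pseudocount of 0.1. The closest pair was *DMI2* and *DMI3*, with 0.22 on the log2 scale, and *IPD3* was nearest to *DMI3* with 0.32. *DMI1* was nearest to *DMI2* (0.58) and *LYK3* to *IPD3* (0.79). *NIN* was farthest from the others, with 1.64 to its nearest member *DMI1*. Counting error enters these distances too, and *DMI2*, *DMI3*, and *IPD3* had the most fragments of all members (20744, 3848, and 4071 in total). No distances between other genes are given beside them. The genes of a library share its depth and scaling, and these figures are a description over 1 library per condition.

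**Figure D4:**
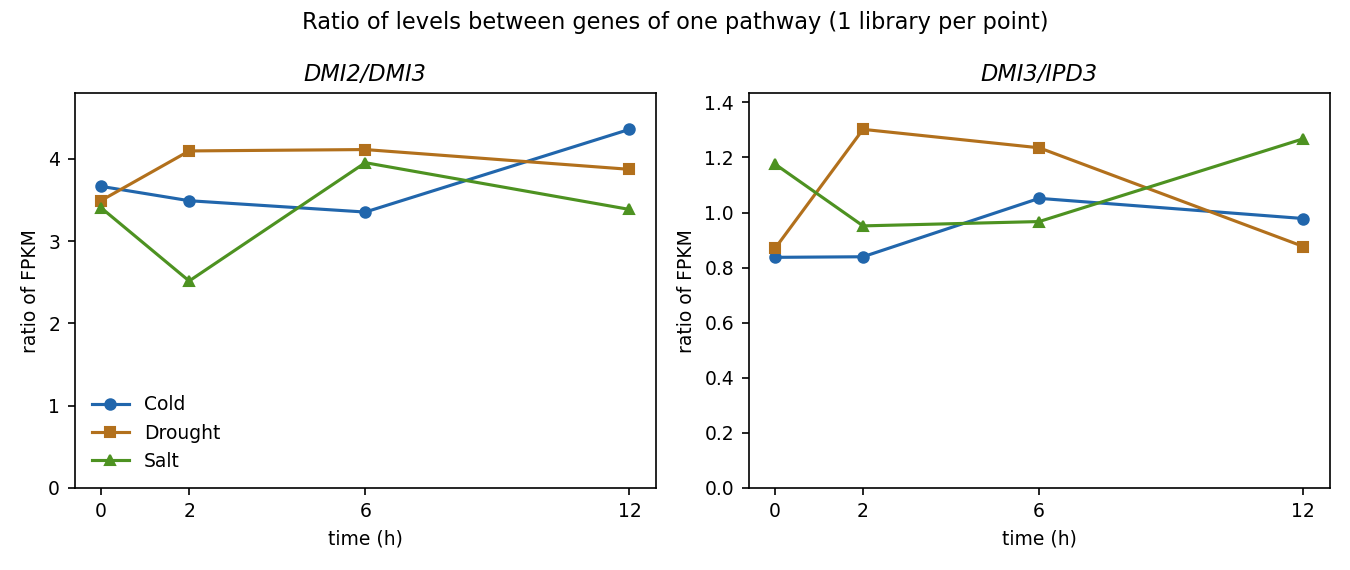
Ratio of the FPKM of *DMI2* to *DMI3* (left) and of *DMI3* to *IPD3* (right) against time in h, 1 point per library, with circles for cold, squares for drought, and triangles for salt. The ratio of *DMI2* to *DMI3* stayed between 2.52 and 4.36, while the level of each of the 3 genes varied at least 5.65-fold across the 12 libraries.

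The transcription factors were less uniform. *NSP1* had 2.00, 0.518, 0.869, and 1.77 FPKM at 0, 2, 6 and 12 h of cold, so that it fell at 2 h (log2 -1.95, 95% interval -2.65 to -1.30) and was close to its starting level at 12 h (-0.18, -0.72 to 0.35). Between 6 and 12 h it rose 2.03-fold, just past the limit. At that step 3 of 7 members tested were raised (*DMI1*, *NSP1*, and *ERN1*), against 4.76% of all genes. For *ERN1* this rested on 4 and 5 fragments. The drought values of *NSP1* were 1.83, 0.565, 0.858, and 0.416, so that the log2 fold change was -1.70 (-2.39 to -1.04) at 2 h and -2.14 (-3.11 to -1.27) at 12 h. The salt values were 1.22, 1.17, 1.48, and 0.772, none past 2-fold. At 2 h this left *NSP1* 2.07-fold higher under salt than under drought, against 8.18% of all genes. Of these libraries, only that of salt reached an FPKM of 1, so *NSP1* passed the filter only through its higher value. The 0 h library of salt had the lowest *NSP1* value before stress (41 fragments), and against the mean of the 3 libraries at 0 h the value at 12 h of salt was past the limit. With the same mean as control, the values of *NSP1* at 6 h of cold and drought were not past it.

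*NSP2*, which acts together with NSP1, had 10, 10, 25, and 15 fragments under cold, 11, 3, 0, and 5 under drought, and 12, 7, 7, and 2 under salt. Its FPKM was thus 0.448 and 0.557 at 6 and 12 h of cold, above the 3 values before stress, and 0 to 0.182 in the later libraries of drought and salt, below them. By counting error alone the cold values could not be told from the start (95% interval of the log2 fold change at 12 h -0.41 to 2.16), nor could those at 12 h of drought and at 2 and 6 h of salt. At 6 h of drought it was listed at 0, at least 3.75-fold lower when set to 3 fragments. The value at 12 h of salt had a log2 fold change of -2.59 (-5.79 to -0.43) from 12 against 2 fragments.

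*ERN1*, which is induced downstream of the other factors during infection, varied most among the members above 0 in every library. Its FPKM was 2.46, 0.609, 0.183, and 0.473 under cold and 2.07, 0.483, 0.897, and 0.343 under salt. Under drought it was 2.75, 2.90, 0.991, and 0.0925, so that at 2 h of drought it was level with its start, where all members but *ERN1* and *NIN* were below theirs. There its log2 fold change was 0.07 (95% interval -0.57 to 0.73) under drought, against -2.01 (-3.15 to -0.98) under cold and -2.10 (-3.39 to -0.94) under salt. Set side by side, the drought library at 2 h held 48 fragments and the salt library 9, a 6.01-fold difference (log2 -2.59 from drought to salt, -3.80 to -1.54), against 8.76% of all genes lowered. *ERN1* was also 4.76-fold higher at 2 h of drought than of cold, against 10.5% raised. In both comparisons it passed the filter only through the drought library, where it was higher. The drought library at 12 h held 1 fragment, for which the log2 fold change of -4.90 has a wide interval (-10.24 to -2.33). The lowest value of cold was at 6 h, with 4 fragments against 31 (log2 -3.75, -5.71 to -2.25).

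*NIN* was the only member whose FPKM in all 6 later libraries of drought and salt was above each value at 0 h. In any given one of these libraries, 31.4% to 37.8% of all genes that reached an FPKM of 1 were above their own values at 0 h. *NIN* itself is not in that set, and at 6 and 12 h of drought its values rested on 5 and 4 fragments. *NIN* had 4, 30, 5, and 4 fragments at 0, 2, 6 and 12 h of drought, 0, 28, 12, and 5 of salt, and 2, 3, 0, and 2 of cold. At 2 h this was 0.412 FPKM under drought and 0.342 under salt, and 0.0378 under cold, the last within the range at 0 h. The log2 fold change at 2 h of drought was 2.64 (95% interval 1.14 to 4.61). At 2 h of salt the FPKM was at least 5.81-fold higher, with the 0 h library set to 3 fragments. At 6 h it was at least 2.60-fold higher under salt, whereas under drought the log2 fold change was 0.29 (-1.93 to 2.62). At 12 h the interval under both stresses held no change. Between stresses at 2 h, drought was 10.9-fold above cold (interval of the log2 1.76 to 5.80) and salt 9.05-fold (1.48 to 5.54). All these FPKM values are below 1, so *NIN* is not among the genes tested by the 2-fold rule, and without the filter it counts as raised at 2 h of drought and at 2, 6 and 12 h of salt. The calls under salt are all ratios to 0 fragments. With 3 fragments in their place, the limits are 5.81-fold at 2 h, 2.60-fold at 6 h, and 1.66-fold at 12 h.

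Set side by side at the same time, the drought and cold libraries differed most at 12 h. *DMI2*, *DMI1*, *DMI3*, *IPD3*, and *NSP1* were lower under drought by more than 2-fold, which were 5 of the 5 members with an FPKM of at least 1 in either library, against 20.9% of all genes. The same 5 genes were lower under salt than under cold (against 19.6%). In both comparisons *DMI1* and *NSP1* reached an FPKM of 1 only in the cold library, so the filter in part sets these counts. The drought library was 5.75-fold below the cold library for *DMI2* (log2 -2.52, 95% interval -2.68 to -2.37), and 6.17-fold for *DMI1*. *LYK3* did not share this difference, with 0.633 FPKM at 12 h of cold, 0.581 of drought, and 0.323 of salt and intervals that held no change between cold and either of the others. Between drought and salt at 12 h, 0 of 3 members with an FPKM of at least 1 were past 2-fold, where 12.5% of all genes were higher and 10.3% lower under salt. There *DMI2* was 1.45-fold and *DMI3* 1.65-fold higher under salt, with intervals of the log2 of 0.34 to 0.72 and 0.28 to 1.19. At 6 h *LYK3* (4.05-fold) and *IPD3* (2.31-fold) were higher under salt than drought, against 11.5% of all genes. Of these, *LYK3* reached an FPKM of 1 only in the salt library, so it passed the filter only through its higher value. Also at 6 h, *DMI2*, *DMI3*, and *IPD3* were lower under drought than cold, against 19.4%. *DMI3* was lower under salt than cold by 2.02-fold at 6 h, against 10.3%.

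Summed over the 10 members, the FPKM fell from 68.5 before drought to 33.9, 19.0, and 13.8 at 2, 6 and 12 h, which is 20.1% of the start. Under salt it went from 72.7 to 38.0, 33.8, and 19.5 (26.9% of the start), and under cold it was 68.9, 48.9, 55.2, and 71.5. *DMI2* made up 48.6% to 61.6% of this sum and sets most of its course. Across the 12 libraries, the 7 members past the filter varied between 4.81-fold (*NSP1*) and 31.4-fold (*ERN1*; 15.9-fold with the 1 fragment at 12 h of drought set to 3), with a median of 6.12-fold, and the median over 22996 genes selected in the same way (FPKM of 1 reached in some library, none at 0) was 3.10-fold.

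Other genes of symbiosis could be named only among the sugar transporters of the study, which its text links to nodules, to arbuscules or to inoculation with rhizobia. A list of 5 of these was examined (*MtSWEET1b*, *MtSWEET3c*, *MtSWEET11*, *MtSWEET12*, and *MtSWEET15c*). The list is not complete. *MtSWEET2b*, which the study also names as changed after inoculation, was not on it, and the study reports that gene as up-regulated under cold and salt. Of the 5 listed, 3 passed the filter on FPKM. At 12 h, 2 of the 3 (*MtSWEET3c* and *MtSWEET15c*) were lowered under drought (against 25.2% of all genes) and under salt (against 26.9%) and 1 (*MtSWEET15c*) under cold (against 14.8%). For *MtSWEET15c* at 12 h of salt this rested on 16 against 7 fragments, with an interval of the log2 fold change of -2.72 to 0.16. Under salt *MtSWEET15c* also counted as raised at 2 and 6 h, with 2.29 and 2.47 FPKM against 0.949, but the libraries of cold and drought at 0 h held 2.51 and 3.34 FPKM, above both, and against them it was not raised. *MtSWEET3c* went from 12.5 to 0.760 FPKM at 6 h of drought, which is 16.4-fold lower (log2 -4.04, 95% interval -4.84 to -3.33). The study's own qRT-PCR went the other way for this gene, with an increase under drought that was highest at 12 h. At 12 h of cold *MtSWEET3c* was at 20.8 FPKM against 13.7, within 2-fold. *MtSWEET1b* and *MtSWEET11* were below an FPKM of 1 in all libraries, and *MtSWEET11* had at most 2 fragments in any of them.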

How the data were processed

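The authors deposited FPKM values, 1 per gene for each of 12 libraries. The study's methods name alignment to the Mt4.0v1 genome with Tophat and FPKM from StringTie for the genes it describes, and the submitters' processing notes name HTSeq and DESeq. Which of these made the deposited values is not stated. How reads that map to several places were counted is not given in the sources used here. Gene names were those of the list that defined the members. Of the gene identifiers, 0 matched the RefSeq table, whose assembly differs, so no sequence or position is given and no promoter motif was searched.

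The ratio of depths between libraries was taken as the commonest ratio of low FPKM values, and fragments as the smallest whole numbers in proportion to depth-corrected FPKM, within 0.02. Fold changes were FPKM ratios without a pseudocount. FPKM are not counts and each condition had 1 library, so no model was fitted and no p-value is given. A library with 0 fragments was set to 3 where a limit is given, and no fold is given with 3 or fewer in both. The rule for members used names and gene identifiers, not values. Members, lists and alternatives were nonetheless chosen with earlier results of these data known. All 10 members and *ACTIN* were to be named, and 5 of the sugar transporters that the study links to symbiosis. Alternatives were other filters, pseudocounts, thresholds, scalings and controls. The steps were tested on simulated data. Values were computed in Python 3.11.15 with pandas 2.3.3 and numpy 2.4.6, intervals with scipy 1.17.1, and plots with matplotlib 3.10.9.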

Additional observations from a re-analysis of the deposited data

Results flagged for a closer look

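*DMI2* and *DMI1* at 12 h moved in opposite directions under different stresses, with counting intervals on opposite sides of no change. The log2 fold change of *DMI2* was 0.25 under cold, -2.23 under drought, and -1.90 under salt. That of *DMI1* was 0.66 under cold, -2.02 under drought, and -1.35 under salt. These intervals cover counting error only, and the libraries of salt and drought at 0 h already differed for *DMI2* by 0.20 (0.11 to 0.28). The cold values were not past 2-fold, each stress had 1 library at 12 h, and the difference between the stresses was not tested.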

How the results depend on the processing

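Under the main rule 3, 7, and 6 members were past 2-fold under cold, drought, and salt, 7 under any stress, and 0 between libraries at 0 h. Without a filter on FPKM the count under cold was 5, with *NFP* and *NIN* added, the latter from 2 fragments to 0. With a pseudocount of 1 it was 1 (*ERN1*). Between libraries at 0 h the count was 1 without a filter and 1 with a threshold of 1.5-fold. Under the other alternatives, the counts stayed within 1.5 times the main counts. Over genes and times, 38 lowered values became 35 after scaling by the median ratio, 37 as TPM, 30 after division by *ACTIN*, 33 where all 3 libraries at 0 h had to be passed, 26 at 3-fold, and 24 with a pseudocount of 1. No lowered value changed sign under a pseudocount, another scaling or the mean of the 3 libraries at 0 h. No paired analysis was possible because each condition had 1 library. Depth limits *NFP*, *NSP2*, *NIN*, and *ERN1*, which had at most 48 fragments in any library.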
